A study of Mus musculus with 5 samples.

Results

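Glutathione and Nrf2 antioxidant genes were compared between the livers of mice with 1 and with both intact copies of Mdr2. The 42 genes were taken by symbol from the 36401 rows of the deposited count tables, by a rule that uses no measured level. The list of symbols itself was chosen with earlier results of these data known. They comprise the pair of regulators Nfe2l2 and Keap1, 13 classic Nrf2 targets, 20 glutathione transferases and 7 other peroxide and superoxide enzymes. All 42 were found and all 42 passed the filter on low counts.

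RNA of lobe 1 of the liver was sequenced from neonatal mice killed on day 10 of life, 3 heterozygous Mdr2+/- and 2 wild-type Mdr2+/+. Mdr2, which the tables list as Abcb4, is the transporter that moves phosphatidylcholine across the canalicular membrane of hepatocytes into bile. The knockout allele had been crossed into the BALB/C background, mice of different genotypes were littermates, and the 5 livers received no treatment, as far as the labels say. The structure of the allele, the sex of the mice and the litter of each mouse are stated in none of the sources used here, and no Mdr2-/- liver was analysed here.

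Nrf2, encoded by Nfe2l2, is a transcription factor that Keap1 holds in the cytoplasm and marks for degradation. When oxidants or electrophiles modify Keap1, Nrf2 enters the nucleus, pairs with small Maf proteins and binds antioxidant response elements in front of genes for glutathione synthesis, thioredoxin recycling and quinone reduction. Glutathione transferases join glutathione to electrophiles, and hepatocytes carry several classes of them. Many, but not all, are also Nrf2 targets in mouse liver, and some respond to nuclear receptors as well.

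The 5 libraries held between 11944157 and 17312851 estimated counts each, and 3 counts corresponded to 0.174 to 0.252 CPM. Levels below are CPM, counts scaled to library size with TMM normalisation, and levels compared between genes are TPM, which also divide each count by transcript length. Differences are log2 fold changes of Mdr2+/- over Mdr2+/+, and a gene is called where edgeR's quasi-likelihood test gave an adjusted p under 0.05 over the 13959 genes tested. Abcb4 had 101, 97.7 and 92.6 CPM in Mdr2+/- livers, against 162 and 162 CPM in Mdr2+/+ livers, a difference that passed the test (log2 fold change -0.74, SE 0.06, adjusted p = 3.36e-04) and ran with the labels. Hepatocyte markers such as Alb and Ttr were abundant in all 5 libraries, and the 8 of them summed to 170098 to 185244 CPM in Mdr2+/- livers and 158502 to 171918 CPM in Mdr2+/+ livers. The sex-linked transcripts set Mdr2+/- replicate 1 apart, because Xist, the RNA that silences an X chromosome in females, had 11.3, 326 and 426 CPM in Mdr2+/- livers, against 409.8 and 286 CPM in Mdr2+/+ livers. Ddx3y, a Y-linked RNA helicase, had 79.7, 0.0607 and 2.27 CPM in Mdr2+/- livers, against 0.132 and 0.0841 CPM in Mdr2+/+ livers, so every single-gene test of a member was also run without Mdr2+/- replicate 1. The labels do not tie the libraries to separate litters or state outright that each is a different mouse, so p-values measure only the spread between these samples.

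The upstream sequences of a few members hold letters that match the core of the element that Nrf2 binds. RefSeq promoters of 300 bases on GRCm38.p6, 250 before and 50 after an annotated start, could be matched for 37 of the 42 members. The letters TGACNNNGC, the core of the antioxidant response element, were searched on both strands, as were the related letters TGANTCA, the AP-1 core. The first occurred in 4 of 11 classic Nrf2 targets (Gclm, Prdx1, Srxn1 and Txnrd1) and in 4 of 18 glutathione transferases (Gsta3, Gstm5, Gstm7 and Mgst1), against 14% of the 27025 genes in the table and 12.4% of its 32851 promoters. TGANTCA occurred in 2 of 11 classic targets (Prdx1 and Srxn1) and in 3 of 18 glutathione transferases (Gstm5, Gstp1 and Gstp2), against 8.97% of the 27025 genes and 7.81% of all promoters. The motifs can overlap, as in Prdx1. The sequence is that of the reference strain and not of the BALB/C mice, a match is a description and not a measured binding site, and no match says nothing about binding elsewhere.

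Sequences are shown for 3 classic targets and 3 transferases, so that a motif match can be set beside the values of the same genes. They run 5′ to 3′ along the gene, in lower case with 1 motif match in capitals. The match is to TGACNNNGC in Gclm, Txnrd1, Prdx1 and Mgst1. In Gstp1 and Gstp2, which hold no TGACNNNGC here, it is to TGANTCA. Gclm (chr3:122245307-122245606, plus strand), Txnrd1 (chr10:82858956-82859255, plus strand, an internal start) and Prdx1 (chr4:116685349-116685648, plus strand) carry the match 134, 92 and 133 bases before the start, and Mgst1 (chr6:138140277-138140576, plus strand) carries it 56 bases before. In those 4 the element lies on the opposite strand, so the capitals are its reverse complement. Gstp1 (chr19:4037863-4038162, minus strand) and Gstp2 (chr19:4042172-4042471, minus strand) carry TGANTCA 74 and 89 bases before the start.
Gclm: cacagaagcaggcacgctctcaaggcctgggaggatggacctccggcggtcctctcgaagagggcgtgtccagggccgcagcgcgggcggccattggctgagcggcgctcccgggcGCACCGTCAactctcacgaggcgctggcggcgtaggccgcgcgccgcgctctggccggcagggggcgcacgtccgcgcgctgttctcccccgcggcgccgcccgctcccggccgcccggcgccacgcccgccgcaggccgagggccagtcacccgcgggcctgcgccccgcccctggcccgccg
Txnrd1: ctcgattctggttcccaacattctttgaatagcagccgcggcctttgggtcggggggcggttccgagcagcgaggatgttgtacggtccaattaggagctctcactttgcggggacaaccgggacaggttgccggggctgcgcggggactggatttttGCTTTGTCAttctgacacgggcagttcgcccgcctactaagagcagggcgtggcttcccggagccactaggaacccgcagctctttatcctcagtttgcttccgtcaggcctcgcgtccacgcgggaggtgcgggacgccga
Prdx1: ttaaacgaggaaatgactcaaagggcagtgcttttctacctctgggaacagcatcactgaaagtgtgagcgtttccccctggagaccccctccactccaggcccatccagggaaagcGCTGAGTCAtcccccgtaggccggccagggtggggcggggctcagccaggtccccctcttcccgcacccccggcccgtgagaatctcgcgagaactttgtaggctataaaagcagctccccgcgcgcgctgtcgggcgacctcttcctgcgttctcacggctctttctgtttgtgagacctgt
Mgst1: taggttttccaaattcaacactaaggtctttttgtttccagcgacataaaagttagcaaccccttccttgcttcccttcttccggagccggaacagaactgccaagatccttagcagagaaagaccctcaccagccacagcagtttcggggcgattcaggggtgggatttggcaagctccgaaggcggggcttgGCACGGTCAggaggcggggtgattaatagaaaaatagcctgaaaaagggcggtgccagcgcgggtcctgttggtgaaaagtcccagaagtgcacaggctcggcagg
Gstp1: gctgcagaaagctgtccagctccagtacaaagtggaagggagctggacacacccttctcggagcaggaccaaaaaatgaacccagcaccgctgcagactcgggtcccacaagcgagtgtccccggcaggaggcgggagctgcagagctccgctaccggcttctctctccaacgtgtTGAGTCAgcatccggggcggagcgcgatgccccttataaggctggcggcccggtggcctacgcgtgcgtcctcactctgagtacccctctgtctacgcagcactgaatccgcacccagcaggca
Gstp2: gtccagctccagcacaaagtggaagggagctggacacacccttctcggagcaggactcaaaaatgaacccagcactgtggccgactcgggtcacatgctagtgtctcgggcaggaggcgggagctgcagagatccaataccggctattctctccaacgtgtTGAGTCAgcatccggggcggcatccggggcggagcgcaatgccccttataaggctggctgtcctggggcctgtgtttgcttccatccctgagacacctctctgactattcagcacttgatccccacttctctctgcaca

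Of the 42 members, 12 were called between the genotypes, 11 lower and 1 higher in Mdr2+/- livers. Among all tested genes 12% were called, 5.41% lower and 6.63% higher. The groups did not overlap for 25 members, against 45.5% of all tested genes, 21 with every Mdr2+/- liver below both Mdr2+/+ livers and 4 above, while over all tested genes 22.7% lay below and 22.9% above. The median log2 fold change was -0.16 over the members and -0.00 over all tested genes. The lower calls comprised 7 of 20 glutathione transferases, 3 of 13 classic Nrf2 targets and 1 of 7 peroxide and superoxide enzymes, and the only higher call was the glutathione peroxidase Gpx1.

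**Figure D1:**
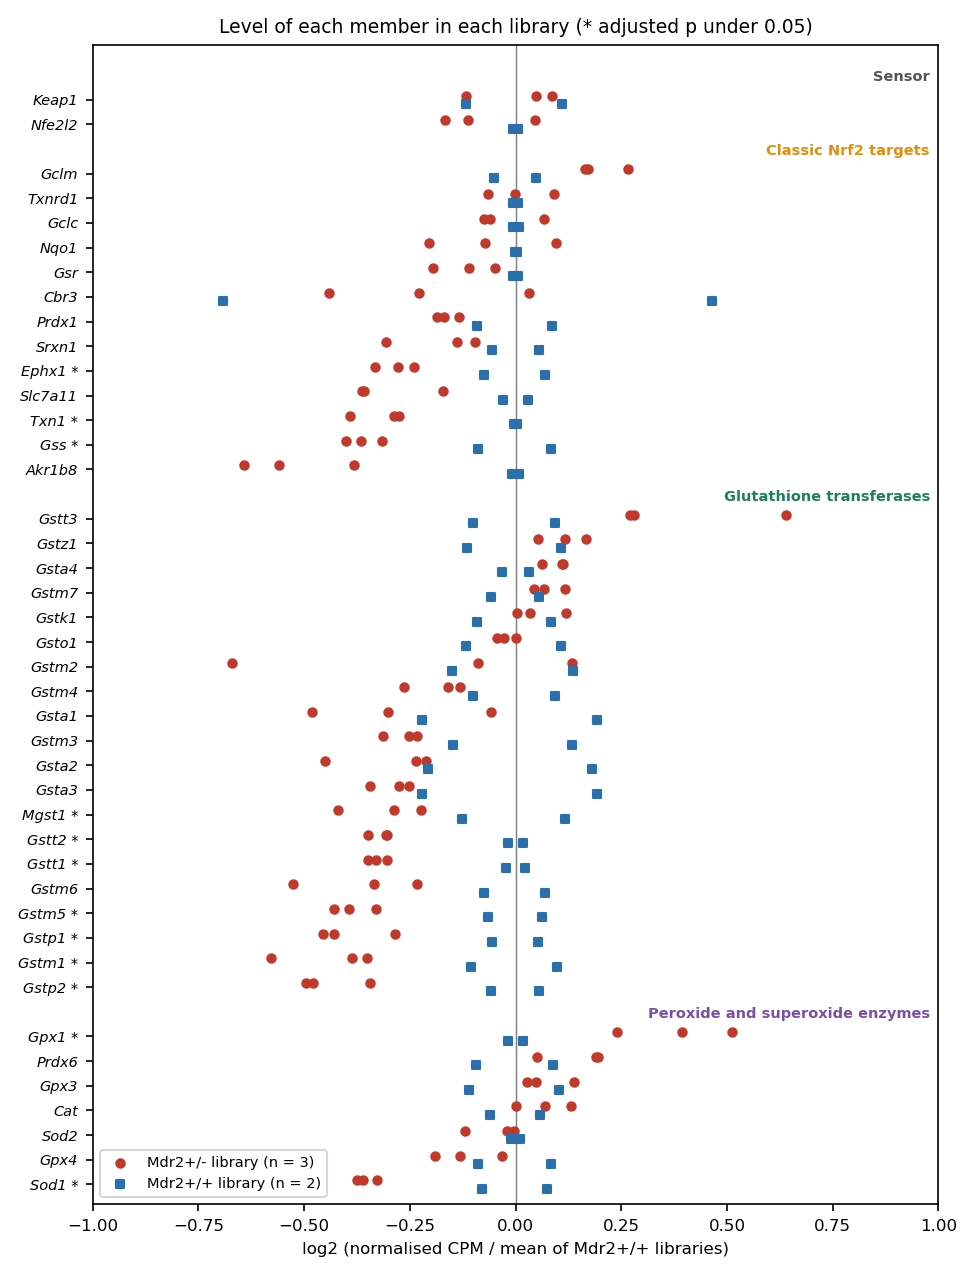
Level of each member in each library, as log2 of the normalised CPM over the mean of the Mdr2+/+ libraries, for 3 Mdr2+/- (circles) and 2 Mdr2+/+ livers (squares); asterisks mark an adjusted p under 0.05. The 12 called members are separated between genotypes, 11 to the left and Gpx1 to the right, while the regulators overlap.

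Neither regulator was called between genotypes. Nfe2l2, the gene of Nrf2, had 52.2, 46.8 and 45.1 CPM in Mdr2+/- livers, against 50.8 and 50.4 CPM in Mdr2+/+ livers. Keap1, its sensor and repressor, had 46.4, 40.3 and 45.2 CPM in Mdr2+/- livers, against 47.2 and 40.3 CPM in Mdr2+/+ livers. Both ranges overlapped, and neither gene passed the test (log2 fold changes -0.08 and 0.00, adjusted p = 0.551 and 0.992). Nrf2 activity is set mainly by protein stability, which transcript levels do not measure.

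Of the 13 classic Nrf2 targets, Gss, Txn1 and Ephx1 were called lower and 0 higher in Mdr2+/- livers. Among all tested genes 5.41% were called lower and 6.63% higher. The median log2 fold change of the 13 targets was -0.16, with 11 of 13 below 0. The groups did not overlap for 9 of them, 8 lower and 1 higher in Mdr2+/- livers. Over all tested genes the groups did not overlap for 45.5%, 22.7% lower and 22.9% higher.

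Glutathione synthesis begins with glutamate-cysteine ligase, made of the catalytic subunit Gclc and the modifier subunit Gclm. Gclc had 374, 343 and 339 CPM in Mdr2+/- livers, against 359 and 355 CPM in Mdr2+/+ livers, and its groups overlapped (adjusted p = 0.872). Gclm had 321, 300.3 and 299 CPM in Mdr2+/- livers, against 258 and 276 CPM in Mdr2+/+ livers. Every Mdr2+/- liver lay above both Mdr2+/+ livers for Gclm, but the difference did not pass the test (log2 fold change 0.20, SE 0.07, adjusted p = 0.0820). The ratio of Gclm to Gclc in TPM was 0.524, 0.537 and 0.540 in Mdr2+/- livers and 0.440 and 0.475 in Mdr2+/+ livers, ranges that did not overlap and were not tested.

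Gss, the glutathione synthetase that adds glycine in the last step, had 83.8, 80.9 and 79.0 CPM in Mdr2+/- livers, against 98.0 and 111 CPM in Mdr2+/+ livers. All Mdr2+/- livers were below both Mdr2+/+ livers and the difference passed the test (log2 fold change -0.36, SE 0.07, adjusted p = 0.0119). Its exons share 6.68% of their bases with Acss2 on the opposite strand, and reads there cannot be told apart without strand. Gsr, which regenerates reduced glutathione from its disulfide, had 37.9, 35.8 and 39.6 CPM in Mdr2+/- livers, against 41.1 and 40.8 CPM in Mdr2+/+ livers, close but not overlapping, and did not pass (adjusted p = 0.321). Slc7a11, the cystine importer xCT, had 8.63, 9.83 and 8.61 CPM in Mdr2+/- livers, against 11.3 and 10.9 CPM in Mdr2+/+ livers, again without overlap and without passing (log2 fold change -0.29, SE 0.11, adjusted p = 0.128).

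In the thioredoxin system the carrier Txn1 was called and its reductase Txnrd1 was not. Txn1, the cytosolic thioredoxin, had 149, 162 and 160.4 CPM in Mdr2+/- livers, against 195 and 196 CPM in Mdr2+/+ livers, and was lower in Mdr2+/- livers (log2 fold change -0.32, SE 0.06, adjusted p = 0.0135). Txnrd1, the selenoprotein that reduces it, had 65.7, 73.3 and 68.7 CPM in Mdr2+/- livers, against 68.5 and 69.0 CPM in Mdr2+/+ livers, with overlapping groups (log2 fold change 0.01, SE 0.07, adjusted p = 0.937). Prdx1, a peroxiredoxin that thioredoxin serves, had 952, 987 and 963 CPM in Mdr2+/- livers, against 1016 and 1149.9 CPM in Mdr2+/+ livers, and Srxn1, which rescues overoxidised peroxiredoxins, had 23.4, 27.1 and 26.3 CPM in Mdr2+/- livers, against 27.8 and 30.0 CPM in Mdr2+/+ livers. Neither passed (adjusted p = 0.160 and 0.240), although the groups did not overlap for either. Whether Txn1 and Txnrd1 differed from each other in their response was not tested.

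The remaining classic targets metabolise quinones, carbonyls and epoxides. Nqo1, the quinone reductase most used as a readout of Nrf2, had 9.18, 10.3 and 8.37 CPM in Mdr2+/- livers, against 9.64 and 9.67 CPM in Mdr2+/+ livers, with overlapping groups and a log2 fold change of -0.06 (adjusted p = 0.814). Ephx1, the microsomal epoxide hydrolase, had 143, 139 and 134 CPM in Mdr2+/- livers, against 159.9 and 177 CPM in Mdr2+/+ livers, and was called lower (log2 fold change -0.28, SE 0.07, adjusted p = 0.0266). Akr1b8, an aldose reductase relative, had 4.94, 4.37 and 4.13 CPM in Mdr2+/- livers, against 6.41 and 6.48 CPM in Mdr2+/+ livers. This was the most negative fold change of any member, but at these low levels it stayed just above the threshold (log2 fold change -0.53, SE 0.15, adjusted p = 0.0546). Cbr3, a carbonyl reductase, was near the limit of counting, with 0.628, 0.728 and 0.872 CPM in Mdr2+/- livers, against 0.528 and 1.18 CPM in Mdr2+/+ livers, and the Mdr2+/+ livers spanned the whole range of the Mdr2+/- livers.

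The 20 glutathione transferases gave 7 lower and 0 higher calls, with a median log2 fold change of -0.27 and 15 of 20 below 0. The groups did not overlap for 14 of them, 12 lower and 2 higher in Mdr2+/- livers. Over all tested genes 5.41% were called lower and 6.63% higher. Without regard to calls, the groups did not overlap for 45.5% of all tested genes, 22.7% lower and 22.9% higher. Members of the pi, theta, mu and microsomal classes were called, and none of the alpha class, nor Gstk1, Gstz1 or Gsto1. Whether the transferases differed from the classic targets, with medians of -0.27 and -0.16, was not tested. With a transcript length offset 2 transferases were lower and 1 higher, and without Mdr2+/+ replicate 2 only 2 were lower, as described at the end.

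The pi class consists here of Gstp1 and Gstp2, neighbouring genes on chromosome 19 at chr19:4035407-4037985 and chr19:4040285-4046023 (mm10). Gstp1 had 150.3, 136 and 133 CPM in Mdr2+/- livers, against 176 and 189.9 CPM in Mdr2+/+ livers (log2 fold change -0.39, SE 0.07, adjusted p = 0.0103). Gstp2 had 82.2, 74.8 and 73.9 CPM in Mdr2+/- livers, against 100.1 and 108 CPM in Mdr2+/+ livers (log2 fold change -0.44, SE 0.07, adjusted p = 0.00517), which is 1.36-fold lower in Mdr2+/- livers. In both genes all Mdr2+/- livers were below both Mdr2+/+ livers. Their transcripts are near copies: 62.3% of the 50-base words of Gstp1 recur in Gstp2, and 64.3% of those of Gstp2 in Gstp1, so the split of reads between them is uncertain. Summed, the pair had 232.5, 211 and 207 CPM in Mdr2+/- livers, against 276 and 298 CPM in Mdr2+/+ livers, and remained lower (log2 fold change -0.40, adjusted p = 0.00868). The TPM ratio of Gstp1 to Gstp2 was 1.78, 1.76 and 1.75 in Mdr2+/- livers and 1.71 and 1.70 in Mdr2+/+ livers.

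The theta class lies in a cluster on chromosome 10 and was split. Gstt1, which also dehalogenates small molecules, had 123, 127 and 124 CPM in Mdr2+/- livers, against 154 and 159 CPM in Mdr2+/+ livers, with a spread within each genotype far below the gap between them (log2 fold change -0.33, SE 0.06, adjusted p = 0.00864). Gstt2 had 30.9, 31.9 and 31.9 CPM in Mdr2+/- livers, against 39.9 and 38.9 CPM in Mdr2+/+ livers, and was lower as well (log2 fold change -0.32, SE 0.07, adjusted p = 0.0157). Gstt3, at chr10:75774115-75781414 next to Gstt1 at chr10:75783813-75798584, had 6.75, 6.80 and 8.72 CPM in Mdr2+/- livers, against 5.22 and 5.97 CPM in Mdr2+/+ livers, all Mdr2+/- livers above both Mdr2+/+ livers, and did not pass (log2 fold change 0.42, SE 0.17, adjusted p = 0.139). Of its 50-base words 26.0% recur in the predicted gene Gm20441.

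The 7 mu-class genes form a cluster on chromosome 3 between positions 107895821 and 108044894. Gstm1, the most abundant of them in TPM, had 125, 146 and 143 CPM in Mdr2+/- livers, against 174 and 199.8 CPM in Mdr2+/+ livers, and was lower in Mdr2+/- livers (log2 fold change -0.43, SE 0.09, adjusted p = 0.0137). Gstm5 had 13.4, 14 and 13.1 CPM in Mdr2+/- livers, against 16.8 and 18.4 CPM in Mdr2+/+ livers (log2 fold change -0.38, SE 0.10, adjusted p = 0.0315), and 13.9% of its exon bases overlap a transcript on the opposite strand. Gstm6 had 13.2, 16.1 and 15.1 CPM in Mdr2+/- livers, against 18.0 and 19.9 CPM in Mdr2+/+ livers, without overlap but short of the threshold (adjusted p = 0.0674). The groups also did not overlap for Gstm3 and Gstm4, with log2 fold changes of -0.26 and -0.18, which did not pass. Gstm7 had 45.7, 47.2 and 44.9 CPM in Mdr2+/- livers, against 41.9 and 45.3 CPM in Mdr2+/+ livers, with overlapping groups and a log2 fold change of 0.08 (adjusted p = 0.498). Gstm2 had 17.9, 31.3 and 26.8 CPM in Mdr2+/- livers, against 25.7 and 31.3 CPM in Mdr2+/+ livers, the widest spread among Mdr2+/- livers, relative to the mean, of any mu gene. The sum of the 7 genes was 254, 294 and 280 CPM in Mdr2+/- livers, against 317 and 363 CPM in Mdr2+/+ livers (log2 fold change -0.30, adjusted p = 0.0476).

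Mgst1, a membrane-bound transferase and peroxidase of the endoplasmic reticulum and mitochondria, was the most abundant transferase, at 1265 ± 92.5 TPM in Mdr2+/- and 1539 ± 148 TPM in Mdr2+/+ (SD, n = 3 and 2). It had 685, 785 and 751 CPM in Mdr2+/- livers, against 839 and 994 CPM in Mdr2+/+ livers, and its difference passed the threshold narrowly (log2 fold change -0.31, SE 0.09, adjusted p = 0.0495). The alpha class, which in adult mouse liver is strongly inducible through Nrf2, was led by Gsta3 with 614, 604 and 577 CPM in Mdr2+/- livers, against 628 and 836 CPM in Mdr2+/+ livers. The Mdr2+/+ livers differed more from each other for Gsta3 than replicate 1 of that genotype differed from the Mdr2+/- livers, and the gene did not pass (log2 fold change -0.29, SE 0.10, adjusted p = 0.105). Gsta1 and Gsta2 were low, at 2.43 to 3.26 and 4.24 to 5.0 CPM in Mdr2+/- livers and 2.91 to 3.87 and 5.02 to 6.56 CPM in Mdr2+/+ livers, and share most of their sequence with each other or with predicted copies. Gsta4, which conjugates the lipid peroxidation product hydroxynonenal, had 76.8, 79.3 and 79.4 CPM in Mdr2+/- livers, against 75.1 and 71.8 CPM in Mdr2+/+ livers, without overlap and in the other direction, and did not pass (adjusted p = 0.342).

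The remaining transferases had overlapping groups. Gstz1, an enzyme of tyrosine breakdown, had 623, 646 and 597 CPM in Mdr2+/- livers, against 531 and 619.6 CPM in Mdr2+/+ livers (adjusted p = 0.385). Gstk1, a transferase of peroxisomes and mitochondria, had 65.9 to 71.4 CPM in Mdr2+/- livers and 61.7 to 69.7 CPM in Mdr2+/+ livers. Gsto1, a thiol transferase, had 31.0, 30.4 and 30.1 CPM in Mdr2+/- livers, against 28.6 and 33.4 CPM in Mdr2+/+ livers (adjusted p = 0.904).

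In TPM, summed over all 20, transferase transcripts came to 4340, 4608 and 4351 in Mdr2+/- livers and 4779 and 5413 in Mdr2+/+ livers, so the Mdr2+/+ livers differed from each other by more than the lower of them differed from the highest Mdr2+/- liver. The microsomal enzyme Mgst1 supplied on average 28.5% of this sum in Mdr2+/- and 30.2% in Mdr2+/+, the alpha class 22.5% in each, the pi class 12% in Mdr2+/- and 13.7% in Mdr2+/+, and zeta 16.9% in Mdr2+/- and 13.4% in Mdr2+/+. The class sums did not overlap for pi, theta, mu, alpha and the microsomal class. For theta they were 256, 266 and 260.5 TPM in Mdr2+/- livers, against 318 and 317 TPM in Mdr2+/+ livers. These sums were not tested.

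**Figure D2:**
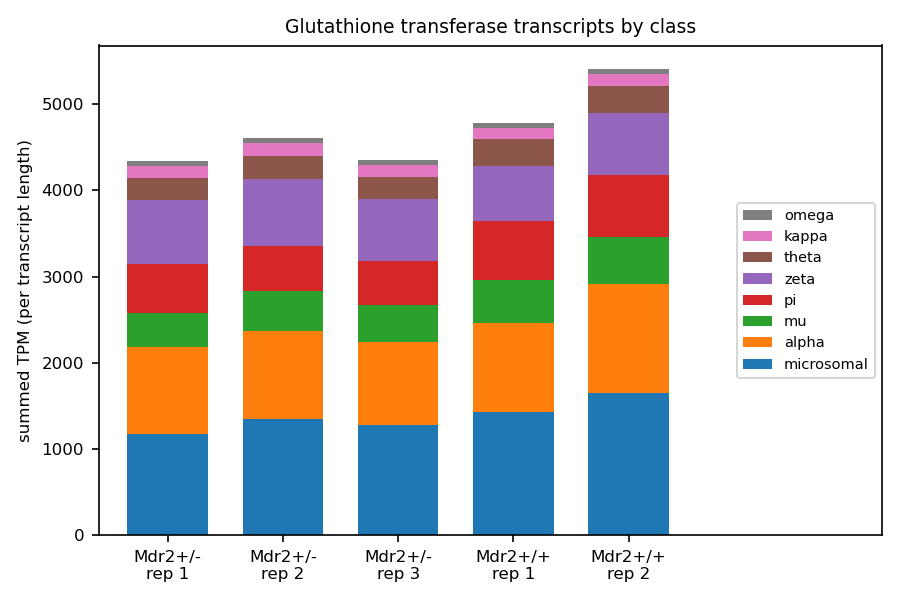
Summed TPM of the 20 glutathione transferases by class, 1 bar per library, with 3 Mdr2+/- livers to the left of 2 Mdr2+/+ livers. The total reaches 5413 TPM in Mdr2+/+ replicate 2 and lies between 4340 and 4779 TPM in the other 4 livers.

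Among the peroxide and superoxide enzymes, Gpx1 was higher and Sod1 lower in Mdr2+/- livers, and the median log2 fold change was 0.07. Gpx1, the selenium-dependent cytosolic glutathione peroxidase, was the most abundant member of all 42 at 2323 ± 229 TPM in Mdr2+/- and 1749 ± 69.6 TPM in Mdr2+/+. It had 1129, 1362 and 1254 CPM in Mdr2+/- livers, against 966 and 944 CPM in Mdr2+/+ livers, and was called (log2 fold change 0.39, SE 0.08, adjusted p = 0.0171), the only member called higher. Sod1, the cytosolic copper and zinc superoxide dismutase, had 439, 434 and 448 CPM in Mdr2+/- livers, against 533 and 593 CPM in Mdr2+/+ livers, and was called lower (log2 fold change -0.35, SE 0.07, adjusted p = 0.0105). Its mitochondrial counterpart Sod2 had 158, 147 and 159.6 CPM in Mdr2+/- livers, against 161 and 159 CPM in Mdr2+/+ livers, with overlapping groups (adjusted p = 0.679).

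Of the other enzymes in this group, Cat, the peroxisomal catalase, had 1378, 1261 and 1321 CPM in Mdr2+/- livers, against 1208 and 1310.4 CPM in Mdr2+/+ livers (adjusted p = 0.563). Prdx6, a peroxiredoxin that uses glutathione, had 273, 301 and 302 CPM in Mdr2+/- livers, against 247 and 280.3 CPM in Mdr2+/+ livers (adjusted p = 0.254). Gpx4, which reduces lipid hydroperoxides in membranes, had 123, 137 and 128 CPM in Mdr2+/- livers, against 132 and 149 CPM in Mdr2+/+ livers (adjusted p = 0.360), and 61.7% of its 50-base words recur in a pseudogene. The secreted Gpx3 was low, at 4.07 to 4.40 CPM in Mdr2+/- livers and 3.70 to 4.29 CPM in Mdr2+/+ livers. The TPM ratio of Gpx1 to Gpx4 was 8.51, 9.20 and 9.07 in Mdr2+/- livers and 6.79 and 5.89 in Mdr2+/+ livers.

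Red-cell precursors remain in the liver at this age, and Gpx1, Sod1 and several other members are also abundant in red cells. Erythroid markers were lower in Mdr2+/- livers, with 11 of 12 called, none at 0, and a summed level of 2710 to 3157 CPM in Mdr2+/- livers against 4653 to 5553 CPM in Mdr2+/+ livers. Gpx1 and Sod1 moved in opposite directions beside that sum. Neutrophil markers were higher, with 10 of 10 called and sums of 378 to 486 CPM in Mdr2+/- livers and 126 to 178 CPM in Mdr2+/+ livers. Over all tested genes 5.41% were called lower and 6.63% higher. With each library left out in turn, 9 to 11 erythroid and 8 to 10 neutrophil markers were called. In bulk tissue, fewer cells of a type and less RNA per cell cannot be told apart, and the part of these cells in the members' differences was not tested.

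Transferases are zoned across the liver lobule, and zone markers differed too. Of 16 pericentral markers 3 were called lower and 1 higher, against 5.41% lower and 6.63% higher of all tested genes. The Wnt-dependent Glul, Lgr5 and Axin2 were lower and Cyp1a2 was higher. Glul lost its call without either Mdr2+/+ library (adjusted p = 0.0585 without replicate 1 and adjusted p = 0.0768 without replicate 2), and Axin2 without replicate 1 (adjusted p = 0.0939). The call of Cyp1a2 was narrow (log2 fold change 0.28, adjusted p = 0.0497) and was lost in 7 of 14 alternatives, with adjusted p between 0.131 and 0.166 in 4 of the 5 fits that left out a library. Glul, the glutamine synthetase of cells around the central vein, had 304, 359 and 381 CPM in Mdr2+/- livers, against 463 and 479 CPM in Mdr2+/+ livers (log2 fold change -0.44, SE 0.09, adjusted p = 0.0158). Of 11 periportal markers tested, 6 were higher and 1 lower, against 6.63% and 5.41% of all tested genes. Among the higher were the urea-cycle enzymes Cps1 (log2 fold change 0.87, adjusted p = 0.00110) and Ass1 (0.50, adjusted p = 0.0392). The other higher ones were Gls2 (0.85, adjusted p = 0.000627), Cyp2f2 (0.96, adjusted p = 0.00296), Hal (0.55, adjusted p = 0.00881) and Sds (1.16, adjusted p = 0.0146). The lower one, Apoa4, had the largest change of the list (-3.29, adjusted p = 0.000197). It ranged over -3.75 to -2.63 with each library left out in turn. Sds and Ass1 lost their calls with limma-voom (adjusted p = 0.210 and 0.144). Ass1 also lost it with DESeq2 (adjusted p = 0.123) and library size alone (adjusted p = 0.0509). Without Mdr2+/+ replicate 1 Sds (log2 fold change 1.02) and Hal (0.56) lost their calls, and without Mdr2+/+ replicate 2 Sds did (1.30). Ass1 lost its call in 4 of the 5 fits that left out a library. The summed level of the pericentral list overlapped, at 6029 to 6714 CPM in Mdr2+/- livers and 5884 to 6662 CPM in Mdr2+/+ livers. With each library left out in turn, 3 to 6 periportal markers were higher, 3 without Mdr2+/+ replicate 1, and 1 to 3 pericentral markers were lower. The part of zonation in the transferase differences was not tested.

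Of 10 targets of the xenobiotic sensors that also regulate transferases, 1 was called higher and 0 lower. Among all tested genes 6.63% were called higher and 5.41% lower. The higher target was Cyp2b10, a target of the receptor CAR. It had 30.7, 25.9 and 20.9 CPM in Mdr2+/- livers, against 15.3 and 11.6 CPM in Mdr2+/+ livers (log2 fold change 0.92, SE 0.17, adjusted p = 0.00958). The call was lost without Mdr2+/+ replicate 2 (adjusted p = 0.0618).

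Further parts of the Nrf2 circuit were described from a list of 25 other regulators and targets, with a median log2 fold change of -0.05. In this list 4 were higher and 3 lower, against 6.63% higher and 5.41% lower of all tested genes. Hmox1, the heme oxygenase that is a standard Nrf2 and Bach1 target, had 35.2, 31.1 and 33.6 CPM in Mdr2+/- livers, against 37.1 and 31.7 CPM in Mdr2+/+ livers, with overlapping groups (log2 fold change -0.05, SE 0.09, adjusted p = 0.737). Blvrb, the biliverdin reductase of red cells and liver, had 78.3, 86.1 and 79.3 CPM in Mdr2+/- livers, against 125 and 115 CPM in Mdr2+/+ livers, the clearest lower value of the list (log2 fold change -0.56, SE 0.07, adjusted p = 0.00160). Fth1, the ferritin heavy chain, had 753, 789.5 and 795 CPM in Mdr2+/- livers, against 901 and 940.0 CPM in Mdr2+/+ livers (log2 fold change -0.24, SE 0.06, adjusted p = 0.0344). Rbx1, a subunit of the ligase complex that Keap1 recruits, averaged 41.7 ± 0.904 CPM in Mdr2+/- and 49.9 ± 2.74 CPM in Mdr2+/+ (log2 fold change -0.26, SE 0.07, adjusted p = 0.0376).

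The 4 higher genes of that list do not share a single role. Nfe2l1, a membrane-anchored relative of Nrf2, had 89.7, 101 and 99.7 CPM in Mdr2+/- livers, against 76.5 and 80.6 CPM in Mdr2+/+ livers (log2 fold change 0.31, SE 0.07, adjusted p = 0.0253). Bach2, a repressor prominent in B cells, averaged 21.9 ± 2.73 CPM in Mdr2+/- and 15.9 ± 1.34 CPM in Mdr2+/+ (log2 fold change 0.46, SE 0.12, adjusted p = 0.0340). Beside it 5 of 7 B-cell markers were higher, against 6.63% of all tested genes. These markers had sums of 31.9 to 39.6 CPM in Mdr2+/- livers and 13.1 to 18.2 CPM in Mdr2+/+ livers. Of the B-cell markers 3 were higher without Mdr2+/+ replicate 2 and 3 with the replicate block. Abcc2, the canalicular exporter of glutathione and its conjugates, had 166, 158 and 137 CPM in Mdr2+/- livers, against 107 and 122 CPM in Mdr2+/+ livers (log2 fold change 0.43, SE 0.09, adjusted p = 0.0176). Ces1g, a carboxylesterase, averaged 183 ± 23.0 CPM in Mdr2+/- and 121 ± 29.9 CPM in Mdr2+/+ (log2 fold change 0.60, SE 0.14, adjusted p = 0.0268). Without Mdr2+/+ replicate 1 all 4 higher genes lost their calls, with log2 fold changes between 0.26 and 0.37. Without Mdr2+/+ replicate 2 Nfe2l1 (0.35) and Bach2 (0.55) lost theirs. Nfe2l1, Abcc2 and Ces1g lost theirs without Mdr2+/- replicate 2 (adjusted p = 0.0805, 0.0580 and 0.0753). Bach2 lost its call without Mdr2+/- replicate 1 (adjusted p = 0.0576), and Nfe2l1 and Bach2 without replicate 3 (adjusted p = 0.0712 and 0.0580). Blvrb was called under every alternative run. Fth1 and Rbx1 lost their calls in all 5 fits that left out a library (adjusted p between 0.0624 and 0.121 for Fth1 and between 0.0592 and 0.169 for Rbx1). With the length offset Fth1 was at -0.15 (adjusted p = 0.151) and Rbx1 at -0.18 (adjusted p = 0.121). Both also lost their calls with the replicate block (adjusted p = 0.0782 and 0.0709), and Rbx1 with DESeq2 (adjusted p = 0.126). Of the 4 higher genes, Nfe2l1, Bach2 and Abcc2 lost their calls with the length offset (adjusted p = 0.0820, 0.120 and 0.0802). Nfe2l1 and Bach2 also lost them with the replicate block (adjusted p = 0.0507 and 0.0502). Ces1g lost its call with DESeq2 (adjusted p = 0.0878) and limma-voom (adjusted p = 0.123).

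NADPH drives both glutathione and thioredoxin reduction. Of 8 genes that supply it 2 were lower and 0 higher, against 5.41% lower and 6.63% higher of all tested genes. Me1, the cytosolic malic enzyme, had 33.4, 37.2 and 38.1 CPM in Mdr2+/- livers, against 46.4 and 52.2 CPM in Mdr2+/+ livers (log2 fold change -0.44, SE 0.08, adjusted p = 0.0105). Tkt, the transketolase of the pentose phosphate pathway, averaged 68.9 ± 0.682 CPM in Mdr2+/- and 81.8 ± 1.79 CPM in Mdr2+/+ (log2 fold change -0.25, SE 0.06, adjusted p = 0.0251). G6pdx, the entry enzyme of that pathway, averaged 10.3 ± 0.995 CPM in Mdr2+/- and 10.7 ± 1.37 CPM in Mdr2+/+ and did not pass (adjusted p = 0.787). Me1 lost its call in 1 of 14 alternatives, without Mdr2+/+ replicate 2 (adjusted p = 0.0666). Tkt lost it in all 5 fits that left out a library, with adjusted p between 0.0529 and 0.101, and also with DESeq2 (adjusted p = 0.0624) and the replicate block (adjusted p = 0.0787).

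Of 35 tested genes in a list of other glutathione and thioredoxin enzymes, 5 were lower and 1 higher in Mdr2+/- livers. Among all tested genes 5.41% were lower and 6.63% higher. Mgst3, a second microsomal transferase, had 15.9, 15.6 and 15.2 CPM in Mdr2+/- livers, against 22.4 and 25.3 CPM in Mdr2+/+ livers, a larger fold than any of the 20 transferases described above (log2 fold change -0.61, SE 0.09, adjusted p = 0.00376). Prdx2, a cytosolic peroxiredoxin abundant in red cells, averaged 124 ± 3.65 CPM in Mdr2+/- and 155 ± 10.6 CPM in Mdr2+/+ (log2 fold change -0.33, SE 0.07, adjusted p = 0.0143). Its mitochondrial relative Prdx3 averaged 86.5 ± 1.79 CPM in Mdr2+/- and 105 ± 1.86 CPM in Mdr2+/+ (log2 fold change -0.27, SE 0.06, adjusted p = 0.0174). Glrx, a glutaredoxin, and Cndp2, a dipeptidase that splits cysteinylglycine, were lower as well (-0.31 and -0.28). With the length offset Mgst3 and Prdx2 remained lower (adjusted p = 0.0121 and 0.0483). Prdx3, Glrx and Cndp2 lost their calls with it (adjusted p = 0.0835, 0.147 and 0.0551). Cth, the transsulfuration enzyme that makes cysteine from cystathionine, was higher at the edge of the threshold, with 206, 248 and 231 CPM in Mdr2+/- livers, against 179 and 192 CPM in Mdr2+/+ livers (log2 fold change 0.30, SE 0.09, adjusted p = 0.0498), and lost its call in 4 of the 5 fits that left out a library. Cndp2 lost its call in all 5 fits that left out a library and Glrx in 4 of them. Without Mdr2+/+ replicate 2 only Mgst3 of the 5 was lower (-0.52, adjusted p = 0.0257).

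Most members have short transcripts, and in these libraries the fold change followed transcript length. The median longest coding transcript was 1173 bases for the transferases, 2294 bases for the classic targets and 3026 bases over 13571 tested genes with an annotated length. Tested genes were split into 5 bins of equal size by length. In the bin of the shortest transcripts, up to 1668 bases, 12.3% were called lower and 3.24% higher in Mdr2+/- livers, with a median log2 fold change of -0.14. In the bin of the longest, from 5012 bases up, 376 genes were higher and 49 lower, with a median of 0.11. The shortest bin held 25 members, 17 of them transferases, and 8 of the 25 were lower and 1 higher.

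**Figure D3:**
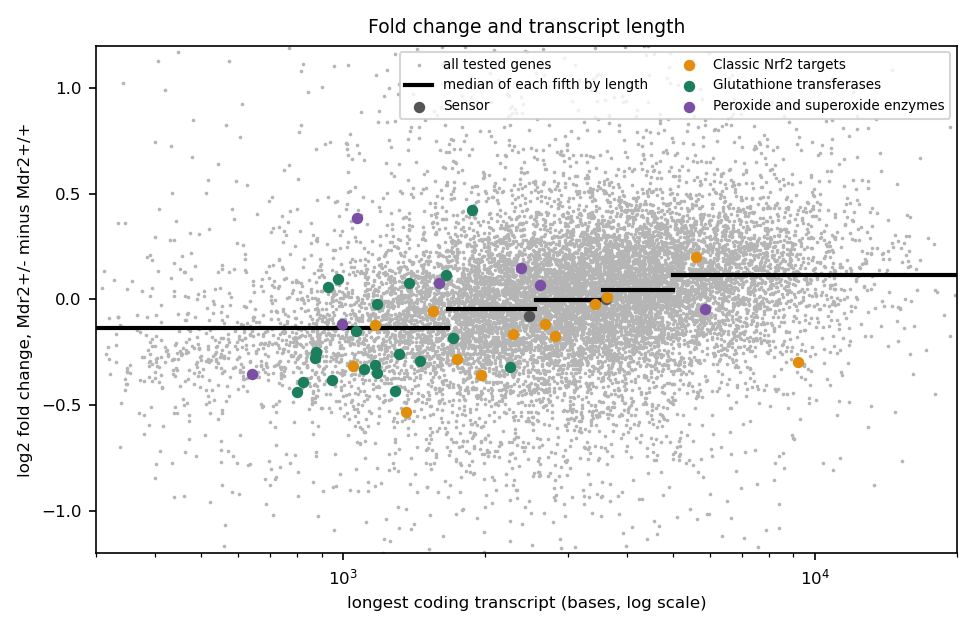
Log2 fold change of Mdr2+/- minus Mdr2+/+ against the longest coding transcript in bases (log scale) for tested genes (grey) and members (coloured by group), with bars for the medians of 5 bins of equal size by length. The median is -0.14 in the bin of shortest transcripts and 0.11 in that of the longest, and 17 of 20 transferases lie at the short end.

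With an offset that removes a smooth of each library on length, 8.78% of all tested genes were called and 6 members. Gstm1 (-0.33, adjusted p = 0.0386) and Gstt2 (-0.28, adjusted p = 0.0291) remained lower among the transferases, and Gsta4 was higher (0.24, adjusted p = 0.0382). Gstp1, Gstp2, Gstt1, Gstm5 and Mgst1 lost their calls, with log2 fold changes between -0.27 and -0.19 and adjusted p between 0.0606 and 0.200. Gss remained lower (-0.31, adjusted p = 0.0274), Slc7a11, whose transcript is long, became lower (-0.44, adjusted p = 0.0454), and Txn1 and Ephx1 no longer passed. Gpx1 had a larger difference (0.52, adjusted p = 0.00472), while Sod1 no longer passed (-0.15, adjusted p = 0.176). The medians of the transferases and of the classic targets were then both -0.13. Whether the length trend arose in the tissue or in the libraries was not tested.

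**Figure D4:**
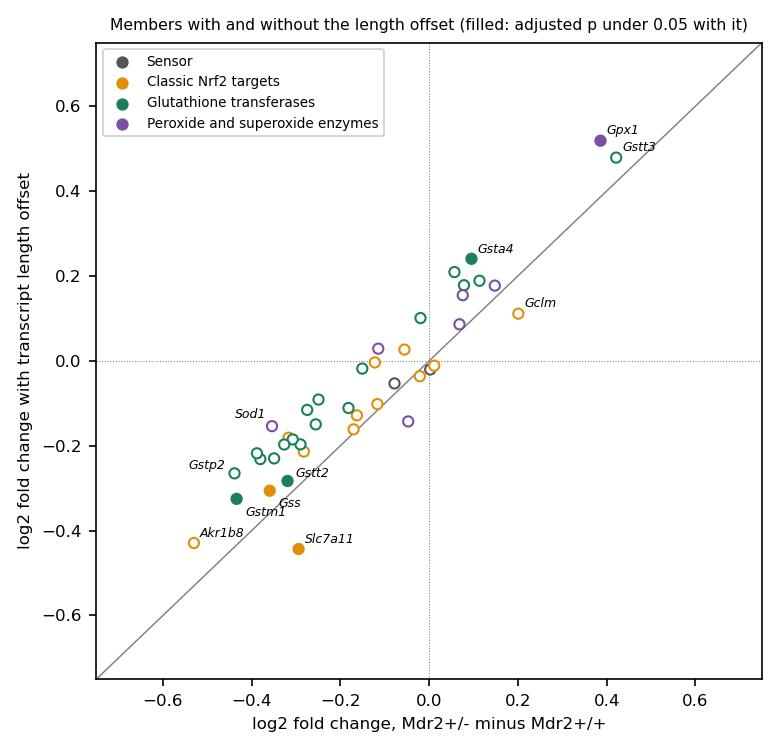
Log2 fold change of Mdr2+/- minus Mdr2+/+ of each member without (x axis) and with (y axis) the transcript length offset; filled points passed the threshold with the offset and the diagonal marks equal values. All 20 transferases lie above the diagonal, and Gpx1 lies further from 0 with the offset, at 0.52.

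The calls also rested on single libraries. Without Mdr2+/+ replicate 2, which leaves 1 wild-type liver assumed to vary like the others, 6.3% of genes and 2 members were called, Gstp2 (-0.38, adjusted p = 0.0350) and Gstt1 (-0.30, adjusted p = 0.0448). The other 10 had adjusted p between 0.0508 for Gstt2 and 0.254 for Mgst1, and the median of the transferases was -0.08. Without Mdr2+/+ replicate 1, 4.89% of genes and 9 members were called and that median was -0.38: Gpx1, Gstm5, Gstt2 and Txn1 lost their calls, with adjusted p between 0.0576 and 0.0820, and Gsta3 gained one (-0.49, adjusted p = 0.0109). Mgst1 ranged from -0.18 without Mdr2+/+ replicate 2 to -0.43 without replicate 1. Without Mdr2+/- replicate 1, the library with Y-linked transcripts, 8.42% of genes were called, and 5 transferases and 3 classic targets were lower: Gstp2 had -0.48 (adjusted p = 0.00619) and Gstp1 -0.44 (adjusted p = 0.00880), and Gstm5 and Mgst1 lost their calls. Without Mdr2+/- replicate 2, 6.1% of genes and 7 members were called, and Gpx1 was among those lost (0.32, adjusted p = 0.0589), as were Ephx1, Gstm5, Gstt2 and Mgst1. Without Mdr2+/- replicate 3, 7.78% of genes and 9 members were called, and Ephx1, Gstm5 and Mgst1 were lost. With DESeq2 8.68% of genes and 10 members were called, and with the replicate number as a block 9.15% of genes and 10 members. Every one of the 12 called members kept the sign of its fold change in these fits.

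**Figure D5:**
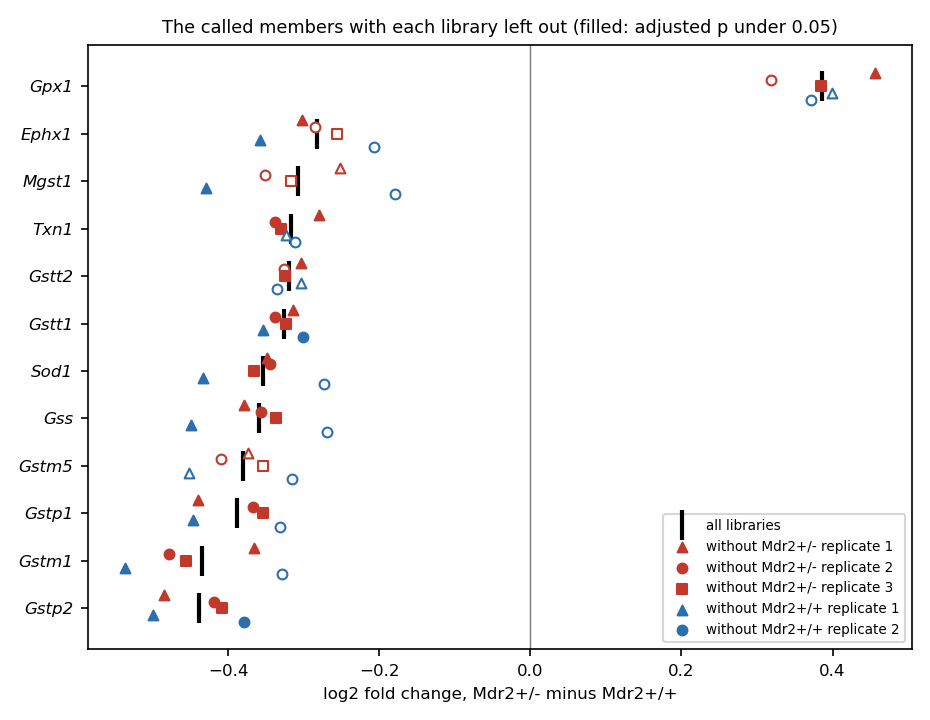
Log2 fold change of Mdr2+/- minus Mdr2+/+ of the 12 called members with all libraries (bar) and with each library left out in turn; filled symbols passed an adjusted p under 0.05. Without Mdr2+/+ replicate 2 only Gstp2 and Gstt1 are filled, and no point crosses 0.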

How the data were processed

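RNA-seq libraries of 5 livers were made with the TruSeq RNA kit, per the labels' protocols, and aligned with TopHat to mm10, per the submitters' processing notes. The deposited files hold estimated counts per Ensembl gene (36401 rows), which the authors did not scale. Which tool counted reads, with which annotation, strand setting and versions, is not given in the sources used here. Of the values above 0, 33.9 to 37.3% were whole (tolerance 1e-06), so reads shared between genes were divided in a way not known. Totals per library ranged from 11944157 to 17312851, and floors of 3 counts cover counting error only. Every pair of libraries differed by more than sampling noise.

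Groups follow the genotype in the sample titles. Estimated counts were rounded, filtered (filterByExpr, minimum count 10, which kept 99.9% of counts) and scaled by TMM. They were tested with edgeR 4.0.16 (glmQLFit and glmQLFTest, two-sided) in R 4.3.3, with Benjamini-Hochberg adjustment over 13959 genes and a threshold of 0.05. SE is the absolute log2 fold change over the square root of F. TPM divide the deposited counts by the longest coding transcript in GENCODE, which matched 87.3% of the identifiers and gave a length for 97.2% of tested genes. Words of 50 bases were compared between annotated transcripts. Promoters came from RefSeq (GRCm38.p6). Figures were drawn with matplotlib 3.10.9. The fit was tested on simulated data.

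All 42 members are named, with Abcb4 and the called genes of the Nrf2 circuit, NADPH, glutathione, zone and xenobiotic lists. Hmox1, G6pdx, Xist and Ddx3y were chosen after their values were seen. The members and lists were chosen with earlier results of these data known. Alternatives were no filter, 10 counts in every library, RLE, library size alone, DESeq2 1.42.0 and limma-voom (limma 3.58.1). Others were a replicate block, each library left out, a length offset (loess span 0.5) and summed transferases. The sums were Gstp1 with Gstp2, Gsta1 with Gsta2, and Gstm1 to Gstm7. Of the mu genes, Gstm4, Gstm5 and Gstm7 share no 50-base word with another gene. The GTF and promoter table describe the reference strain.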

Additional observations from a re-analysis of the deposited data

How the results depend on the processing

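None of the 12 called members, and none of the called genes of the Nrf2 circuit, NADPH, glutathione, zone and xenobiotic lists, changed the sign of its fold change under the alternatives run. Markers of other cell types were rerun only as counts. The alternatives moved the number of calls. Leaving out each library in turn gave 697 to 1174 called genes, 2 to 10 called members, 2 to 6 lower transferases, 0 to 3 lower classic targets, and medians of -0.38 to -0.081 for transferases and -0.25 to -0.11 for classic targets. The length offset gave 6 called members, 2 lower and 1 higher transferases and a transferase median of -0.13. Library size alone gave a transferase median of -0.30. Summing Gstp1 with Gstp2, Gsta1 with Gsta2, and Gstm1 to Gstm7 left 4 lower transferase units. The mu sum merges called and uncalled genes that are not all near copies. DESeq2 called 1212 genes and 10 members, without Gstm5 (adjusted p = 0.122) and Gstt2 (adjusted p = 0.0520). The cause of these shifts was not tested, beyond there being fewer libraries where a library was left out and fewer units where genes were summed. Without a filter Gsta3, Gstm6 and Akr1b8 passed as well.

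The replicate block called 1277 genes and 10 members, and Ephx1 (adjusted p = 0.0859) and Gstm5 (adjusted p = 0.0792) lost their calls. Only replicate numbers 1 and 2 are shared, and same-numbered libraries deviated from their group means with correlations of 0.0304 and 0.0286. The deviations of the Mdr2+/+ libraries mirror each other, so these correlations cannot show whether the numbers pair the mice.

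Among the members and the genes of those lists that were rerun, the following, none of them called, reversed. Keap1 was -0.037 with library size alone, -0.00024 with limma-voom, -0.012 with the block and -0.020 with the length offset. Nqo1 was 0.013 with the block and 0.026 with the offset, Gclc 0.0043 with the block, and Txnrd1 -0.026 with library size alone and -0.011 with the offset. The offset also gave 0.029 for Gpx4, 0.10 for Gsto1 and 0.026 for Hmox1. With each library left out in turn, Keap1 ranged over -0.10 to 0.12, Nqo1 over -0.14 to 0.021, Gclc over -0.065 to 0.0074, Txnrd1 over -0.032 to 0.048, Cbr3 over -0.64 to 0.50, Gstm2 over -0.33 to 0.036, Gstk1 over -0.034 to 0.15, Gsto1 over -0.14 to 0.094, Gpx3 over -0.039 to 0.18 and Hmox1 over -0.16 to 0.064.

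With 3 and 2 livers the estimates of spread are rough, and Cbr3, Gsta1 and Gsta2 are limited by low counts.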
